A study of Homo sapiens with 12 samples.

Results

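SMAD4 and 9 other genes of transforming growth factor beta (TGF-beta) signalling were examined in ATAC-seq peak lists of oxamate-sensitive and oxamate-resistant pancreatic cancer cells. The 10 genes were SMAD2, SMAD3, SMAD4, SMAD6, SMAD7, TGFBR1, TGFBR2, TGFB1, TGFB2 and SKIL, out of 19974 protein-coding genes. For each gene the window was its RefSeq span on GRCh38 with 5 kb on both sides, and every peak overlapping the window was taken. The 10 windows held 101 of the 178040 regions made by merging overlapping peaks of all libraries. The RefSeq tables used here give gene spans and start sites but no exons, so a region is described by its distance from a start and not as exonic or intronic.

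ATAC-seq maps open chromatin by letting the Tn5 transposase insert sequencing adapters where DNA is not packed away. MIAPaCa2, an established pancreatic ductal adenocarcinoma line, was profiled as parental cells and as cells labelled resistant to an inhibitor of lactate dehydrogenase A, the enzyme that interconverts pyruvate and lactate. The inhibitor was oxamate, and the resistant cells were a population that had survived prolonged culture in it rather than a single clone. Each phenotype was profiled untreated and treated with the inhibitor, which gave 4 groups of 3 libraries: untreated parental, treated parental, untreated resistant and treated resistant. No label says that replicates came from separate cultures, so p-values measure only the spread between these libraries.

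TGF-beta ligands, here TGFB1 and TGFB2, bind the receptor TGFBR2, which recruits and activates TGFBR1. TGFBR1 phosphorylates SMAD2 and SMAD3, which join SMAD4 and enter the nucleus to regulate genes. SMAD6 and SMAD7 are inhibitory SMADs and SKIL is a repressor of SMAD complexes, and several of these brakes are themselves induced by the pathway. SMAD4 is one of the tumour suppressors most often lost in pancreatic cancer.

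The DNA that carries the differences described below is shown first, from RefSeq promoter sequence (GRCh38.p14, each read 5′ to 3′ along its gene). TGFBR2 has RefSeq starts at 30606356 and 30606601 on chromosome 3. The 6 resistant libraries had a peak there and shared 166 bp of it, chr3:30606481-30606646 on the plus strand, where no parental library had a peak. Stretches of 30 bases inside that shared part are chr3:30606509-30606538, with the Sp1 box in capitals, and chr3:30606584-30606613, with an AP-1 site in capitals that ends on the downstream start.

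TGFBR2 Sp1 stretch: gagaaggctctcGGGCGGagagaggtcctg

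TGFBR2 AP-1 stretch: ttgaagttgagTGAGTCActcgcgcgcacg

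The bases just before the TGFB2 start (chr1:218345161-218345335, plus strand) were reached by peaks of 5 resistant and no parental libraries, and lay wholly inside the peak of untreated resistant replicate 1. The capitals mark CAGACA, the short SMAD-binding sequence. The bases before an internal SMAD7 start (chr18:48942808-48942865, minus strand) likewise lay in peaks of resistant libraries only (4 of them) and held none of the motifs searched.

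TGFB2 before its start: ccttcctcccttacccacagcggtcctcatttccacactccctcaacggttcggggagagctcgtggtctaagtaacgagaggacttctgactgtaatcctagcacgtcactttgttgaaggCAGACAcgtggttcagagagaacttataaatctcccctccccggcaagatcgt

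SMAD7 before its internal start: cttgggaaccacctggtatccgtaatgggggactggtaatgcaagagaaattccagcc

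For comparison, the SMAD4 promoter (chr18:51029963-51030212, plus strand) overlapped a peak in all 12 libraries. Its capitals mark the 2 Sp1 boxes, read on the opposite strand. The SMAD6 promoter (chr15:66702136-66702235, plus strand) held, in capitals, the palindromic SMAD box.

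SMAD4 promoter: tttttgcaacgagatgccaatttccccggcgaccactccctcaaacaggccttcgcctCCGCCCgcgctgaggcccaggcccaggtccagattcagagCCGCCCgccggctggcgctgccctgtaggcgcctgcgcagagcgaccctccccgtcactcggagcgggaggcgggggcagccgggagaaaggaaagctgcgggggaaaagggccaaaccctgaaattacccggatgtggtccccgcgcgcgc

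SMAD6 promoter: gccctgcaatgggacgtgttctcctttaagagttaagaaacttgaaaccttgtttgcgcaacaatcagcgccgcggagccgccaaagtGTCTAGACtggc

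Each list held 46401 to 63259 peaks covering 13.8 to 33.7 Mb. Treated parental lists covered the least, 13.8 to 19.4 Mb. Untreated parental lists covered 20.7 to 25.5 Mb, untreated resistant lists 25.6 to 33.7 Mb and treated resistant lists 21.3 to 30.7 Mb. The peaks of resistant lists were wider, with a mean width per library of 448 to 570 bp against 301 to 425 bp in parental lists. The narrowest peak of a list, which follows the fragment length, was 94 to 124 bp in resistant and 67 to 87 bp in parental lists. Relative depth, recovered from the background level of each list and set to 1 in the shallowest library, was 1.33 to 2.77 in parental and 1 to 1.85 in resistant libraries. To allow for the unequal lists, covered bases of a gene window were divided by the Mb covered in the library (bp per Mb). As a check of the line, the window of CDKN2A, which MIAPaCa2 cells are known to have lost, held no peak in any of the 12 libraries. The promoters of VIM and ZEB1, mesenchymal genes this line is known to express, were open in 12 of 12 libraries, and those of 9 acinar, endocrine, blood and liver genes in none, although the window of the blood gene SPI1 held a peak in 12. The promoter of CDH2, another mesenchymal gene, held no called peak in any library. The windows of the epithelial genes KRT8, KRT18, KRT19, EPCAM and CDH1 held a peak in 12 of 12 libraries, with the KRT8 promoter itself open in 7.

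TGFBR2, the receptor that binds the ligand, was the member that separated parental from resistant cells most sharply. Its window held 0 bp of peaks in each of the 6 parental libraries. It held 864, 845 and 392 bp in the untreated resistant libraries and 654, 245 and 363 bp in the treated resistant libraries. Every resistant library was therefore above every parental library. In the fit across 16974 genes (limma on log2 of bp per Mb plus 10), the TGFBR2 window rose in resistant cells with an adjusted p of 0.000854. TGFBR2 met the filter of that fit, a peak in at least 3 libraries, through resistant libraries alone. Its 6 parental values are identical and add no spread, so this p-value and those below are no independent support for the difference. No fold change is given, since the parental value is 0 and the fitted log2 difference of 1.53 ± 0.20 (SE) depends on the added constant. The call was kept when any single library was left out, with adjusted p between 0.00157 and 0.00516. Among treated cells alone the TGFBR2 window was also called in limma (adjusted p = 0.0108), but without treated resistant replicate 1 the adjusted p was 0.0652. Among untreated cells alone it was 0.0604, which passed under several other settings (0.0180 with equal numbers of top-ranked peaks). The depth and width gaps given above run along the same groups, and their part in the result was not tested.

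The TGFBR2 gain came mainly from the region over its starts, chr3:30606296-30607171. The peak there was 730, 351 and 272 bp wide in the untreated resistant libraries and 322, 245 and 243 bp in the treated ones. Its fold over the local background, as the peak caller gave it within each list, was 3.53 to 6.51. These were peaks of middling strength, in the top 35.2% to 71.6% of their own lists. The untreated resistant replicate 2 had the weakest, with a −log10 q of 1.99, and with peaks under a −log10 q of 3 removed the region was no longer present in all resistant libraries. Presence in 6 of 6 resistant and 0 of 6 parental libraries gave p = 0.00216 in a two-sided Fisher's exact test. After adjustment over the 9507 regions tested it was 0.0807 and did not pass. No split of these libraries gives a smaller p, and 0 of the 9507 regions passed in either direction. The adjusted test could thus call no region here, and its outcome says nothing particular about TGFBR2.

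A further TGFBR2 region, chr3:30693609-30693766, lay 87008 bp downstream of the second start and inside the gene. It was called in 3 of 3 untreated and 2 of 3 treated resistant libraries and in 0 of 6 parental libraries, with peaks of 120 to 154 bp (Fisher's exact p = 0.0152, adjusted p = 0.133). Within 500000 bp of TGFBR2 the lists were sparse. No region there was called in all 12 libraries. Parental libraries had 0 to 1 regions each and resistant libraries 1 to 4, counts that include the 4 regions of TGFBR2 itself. Every region outside the gene was called in only 1 library. Those at chr3:30332415-30333359 and chr3:30934299-30934608 were in a resistant library, and chr3:31181892-31182013 was in a parental library. The LOC105377015 gene shares part of the TGFBR2 window, and its peaks cannot be told apart from those of TGFBR2.

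**Figure D1:**
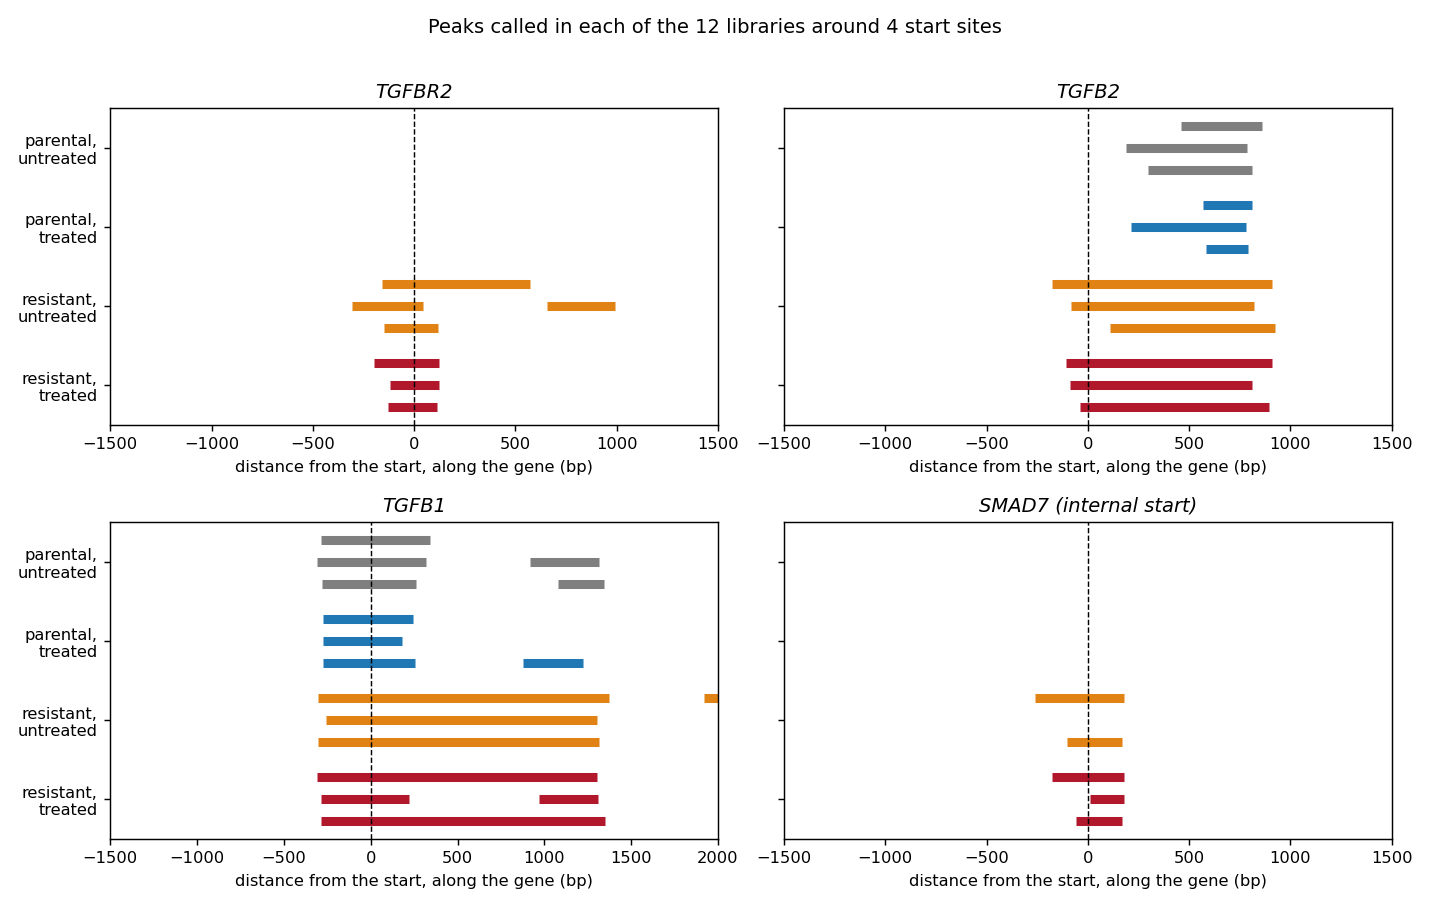
Peaks called around 4 start sites, drawn as bars at their distance in bp from the start along the gene (dashed line at 0, for TGFBR2 the start at 30606601), with 1 row for each of the 3 libraries of each group. At TGFBR2 bars appear in resistant libraries only, at TGFB2 parental bars begin 189 to 583 bp downstream of the start while resistant bars cross it in 5 of 6 libraries, and at the internal SMAD7 start bars appear in 5 of 6 resistant libraries.

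A complete switch at a promoter was rare. Over the 15812 protein-coding genes with a promoter window (250 bp before to 50 bp after a start), 13 genes, or 0.0822%, had a peak there in 6 of 6 resistant and 0 of 6 parental libraries, and TGFBR2 was among them. No gene showed the opposite pattern. TGFB2 and SMAD7 each had 5 of 6 resistant and 0 of 6 parental libraries, a pattern singled out after its values were seen, and 30 genes (0.19%) had 5 or 6 of 6 resistant and 0 parental libraries. For the opposite pattern the count was 1 gene (0.00632%). The promoters of the other 7 members were open in 12 of 12 libraries, as were those of 54.4% of the genes, while 32.6% of genes had no peak there in any library.

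TGFB2, which encodes a TGF-beta ligand, had a peak near its start in all 12 libraries, but the peak did not lie in the same place. The TGFB2 window held 562, 597 and 595 bp in untreated parental and 242, 641 and 207 bp in treated parental libraries. It held 1465, 905 and 1181 bp in untreated resistant and 1695, 898 and 1068 bp in treated resistant libraries. Parental and resistant libraries did not overlap, before or after scaling. In parental libraries the start peak began 189 to 583 bp downstream of the start and never covered it. In resistant libraries it was 816 to 1083 bp wide and covered the start in 2 of 3 untreated and 3 of 3 treated libraries. The CAGACA printed above lay within the peak of 2 untreated and 2 treated resistant libraries. The TGFB2-AS1 and TGFB2-OT1 genes overlap the TGFB2 window, and their peaks cannot be told apart from those of TGFB2.

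Scaled, TGFB2 averaged 24.9 ± 3.4 and 20.6 ± 11.2 bp per Mb in untreated and treated parental cells, and 40.7 ± 4.6 and 45.3 ± 8.7 in untreated and treated resistant cells (SD, n = 3 each). The window rose in resistant cells by 0.72 ± 0.17 (SE) on the log2 scale of the fit (limma adjusted p = 0.0219). The call was lost without untreated resistant replicate 1 (0.0577), untreated resistant replicate 3 (0.0556) or treated resistant replicate 1 (0.0652). Wider peaks in resistant lists, given above, move with this difference, and their part in it was not tested.

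TGFB1, the other ligand, also had a start peak in all 12 libraries, and it too was longer in resistant cells. The peak over the start (chr19:41352551-41354232) was 455 to 634 bp wide in parental libraries. It was a single peak of 1565 to 1675 bp in 5 of the 6 resistant libraries, and in treated resistant replicate 2 it was 510 bp wide with a separate peak downstream, as also seen in 2 untreated and 1 treated parental libraries. The TGFB1 window held 952, 1553 and 1141 bp in untreated and 586, 682 and 879 bp in treated parental libraries, and 2646, 1565 and 2010 bp in untreated and 2323, 852 and 2137 bp in treated resistant libraries. Treated resistant replicate 2 thus lay within the parental range. The log2 difference was 0.45 (95% confidence interval 0.12 to 0.78), which did not pass (limma adjusted p = 0.0933), although it passed without treated resistant replicate 2 (0.58, adjusted p = 0.0224) and with equal numbers of top-ranked peaks (0.60, adjusted p = 0.0491). The window also holds part of B9D2, a gene of the ciliary transition zone.

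Of the receptor pair, TGFBR2 was called and TGFBR1 was not. TGFBR1, the kinase that phosphorylates SMAD2 and SMAD3, had its constant peak over its starts (chr9:99104485-99105990) in all 12 libraries, in the top 4.68% to 19.3% of each list. The TGFBR1 window held 1024 to 1322 bp in untreated and 666 to 1252 bp in treated parental libraries, and 1270 to 1603 bp in untreated and 1300 to 1537 bp in treated resistant libraries. After scaling the groups overlapped, and the log2 difference between resistant and parental cells was 0.00 (95% confidence interval −0.24 to 0.24). Its other recurrent region, 34863 bp downstream of a start, was called in 9 libraries from all groups.

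SMAD4, the shared partner of the receptor-activated SMADs, was open at its promoter in every library. The peak over its start (chr18:51029617-51031137) was 1307, 1293 and 1182 bp wide in untreated parental libraries, 1031, 964 and 971 bp in treated parental, 1442, 1301 and 1284 bp in untreated resistant and 1425, 1505 and 1362 bp in treated resistant libraries. The treated parental peaks were narrower than those of all other libraries, and treated parental lists also covered the fewest bases, 13.8 to 19.4 Mb. A region ending at −1672 bp from the start was called in 12 libraries and another, 20479 bp downstream, in 11, with treated parental replicate 2 the exception.

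Scaled to the size of the list, SMAD4 did not separate the phenotypes. It averaged 76.8 ± 4.1 bp per Mb in untreated and 83.4 ± 20.2 in treated parental cells, and 73.5 ± 2.0 in untreated and 85.1 ± 0.6 in treated resistant cells (SD, n = 3 each). The log2 difference between resistant and parental cells was −0.00 (95% confidence interval −0.23 to 0.23), and without scaling it was 0.41 (limma adjusted p = 0.0243), when the median of all genes also moved by 0.36. With treatment, the 3 treated resistant libraries (84.4 to 85.6 bp per Mb) all lay above the 3 untreated ones (71.2 to 74.9). The log2 difference of 0.19 (95% confidence interval −0.14 to 0.51) did not pass (limma adjusted p = 1), and 4.45% of all genes showed such a gap in that direction.

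**Figure D2:**
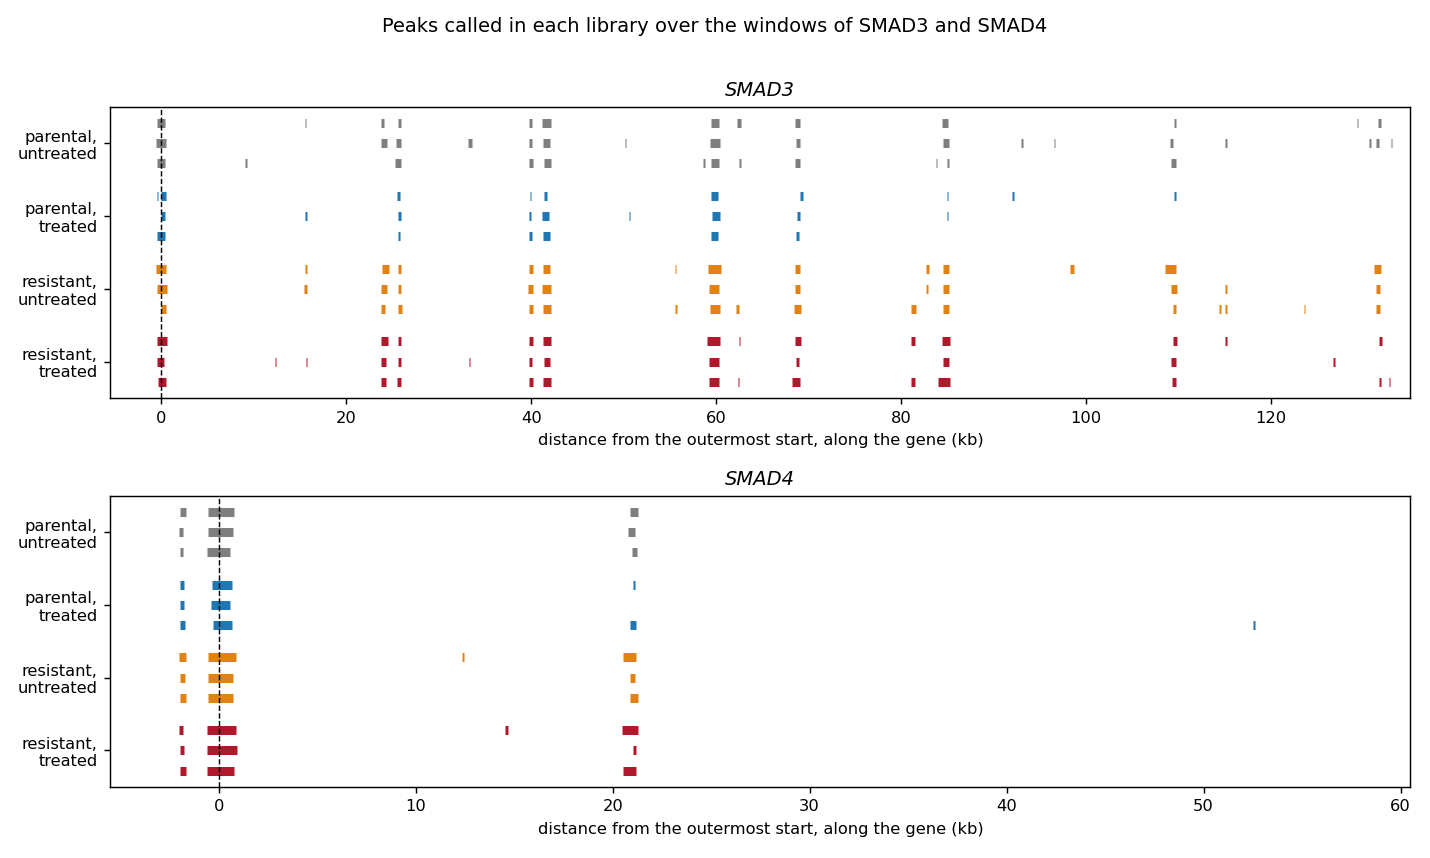
Peaks of each library over the windows of SMAD3 and SMAD4, drawn at their distance in kb from the outermost start (dashed line at 0), with 1 row for each library. Recurrent peaks line up between groups at the starts of both genes, SMAD3 carries 6 regions called in all 12 libraries and SMAD4 carries 2.

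SMAD3, which carries the signal from the receptor to DNA, had the most regions of the 10 genes. Its window held 35 regions, of which 6 were called in 12 libraries, 18 in a single library and 11 in between. Over all members the split was 17, 55 and 29 of 101. Both SMAD3 regions that lie over a start (chr15:67065049-67066211 and chr15:67124603-67126117) were called in all 12 libraries, and the second holds an AP-1 site 56 bp before its start that lay within a peak in each library. The best-ranked of its regions away from a start and called in all 12 libraries was chr15:67106717-67107747, 8038 bp downstream of a start.

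The SMAD3 window held 6164, 7564 and 5171 bp in untreated parental libraries and 3185, 3499 and 3058 bp in treated parental libraries. It held 9333, 7631 and 7475 bp in untreated resistant and 8135, 5503 and 7719 bp in treated resistant libraries. The treated parental libraries were the lowest, with no overlap with any other group before or after scaling. Against untreated parental libraries alone, 9.9% of genes were lower without overlap and 9.16% higher. Scaled values went from 246 to 297 bp per Mb in untreated to 167 to 231 in treated parental cells, a log2 difference of −0.44 (95% confidence interval −0.72 to −0.17) that did not pass after adjustment (limma adjusted p = 0.0958). SMAD3 was higher in treated resistant than in treated parental cells by 0.46 ± 0.13 (SE) on the log2 scale (limma adjusted p = 0.0384). That call was lost without any of 6 libraries, namely treated parental replicates 2 and 3, untreated resistant replicate 3 or any treated resistant replicate, with adjusted p up to 0.135, and also with wide peaks only (0.0829), gene spans alone (0.0727) and all RefSeq genes (0.051).

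SMAD2, the partner of SMAD3 in the same step, had a single recurrent region, the one over its starts (chr18:47929898-47931945), which was called in 12 of 12 libraries. All 4 of its other regions were called in 1 library each. The SMAD2 window held 1147 to 2138 bp in parental and 1806 to 2159 bp in resistant libraries, and the scaled log2 difference was −0.16 (95% confidence interval −0.43 to 0.12). Without scaling the value was 0.25, of opposite sign, and neither passed.

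Of the inhibitory SMADs, SMAD7 was called and SMAD6 was not. SMAD7, which directs the receptors to degradation, held 1289, 1743 and 1101 bp in untreated and 790, 641 and 501 bp in treated parental libraries, and 2731, 1799 and 1873 bp in untreated and 2222, 2158 and 1952 bp in treated resistant libraries. Every resistant library was above every parental library, but after scaling only narrowly. The lowest resistant library, untreated replicate 3, had 68.54 bp per Mb. The highest parental library, untreated replicate 2, had 68.39. The SMAD7 window rose in resistant cells by 0.61 ± 0.15 (SE) on the log2 scale (limma adjusted p = 0.0247) and, among treated cells alone, by 0.92 ± 0.21 (adjusted p = 0.0158). The first call was lost without untreated parental replicate 1 (adjusted p = 0.0543), untreated parental replicate 3 (0.0588) or untreated resistant replicate 1 (0.0662), and the second without treated resistant replicate 2 (0.0548).

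The start of the full SMAD7 span, at 48950965 on chromosome 18, lay in no region. Its nearest regions were at −531 bp (chr18:48951496-48952997), called in 12 libraries, and 481 bp downstream (chr18:48949936-48950484), called in 10, with 1 of 3 treated parental libraries. The region over an internal start (chr18:48942627-48943066) was called in 2 of 3 untreated and 3 of 3 treated resistant libraries and in no parental library (Fisher's exact p = 0.0152, adjusted p = 0.133). The peaks there were 169 to 440 bp wide and in the top 50.2% to 76.7% of their lists.

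SMAD6, which acts mainly on bone morphogenetic protein signals, held 1381 to 2452 bp in untreated and 1212 to 1762 bp in treated parental libraries, and 1997 to 3220 bp in untreated and 1769 to 3018 bp in treated resistant libraries. Scaled values overlapped between all groups, with a log2 difference between resistant and parental cells of 0.07 (95% confidence interval −0.15 to 0.30). It had 3 regions called in all 12 libraries, over its start (chr15:66700830-66702385), at −3472 bp and 71887 bp downstream. The palindromic SMAD box printed above lay within a peak in each library.

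SKIL, the repressor of SMAD complexes, had 1 of 19 regions called in all 12 libraries, the one over its start (chr3:170356623-170358380). The window held 1518, 2276 and 1599 bp in untreated and 836, 1527 and 1764 bp in treated parental libraries, and 2773, 2424 and 2099 bp in untreated and 2614, 1649 and 2610 bp in treated resistant libraries. The scaled log2 difference was 0.14 (95% confidence interval −0.12 to 0.40) and did not pass. Inside the gene, 25923 bp downstream of the start, the region chr3:170383638-170384024 was called in 2 of 3 untreated and 3 of 3 treated resistant libraries and in 0 of 6 parental libraries (Fisher's exact p = 0.0152, adjusted p = 0.133).

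**Figure D3:**
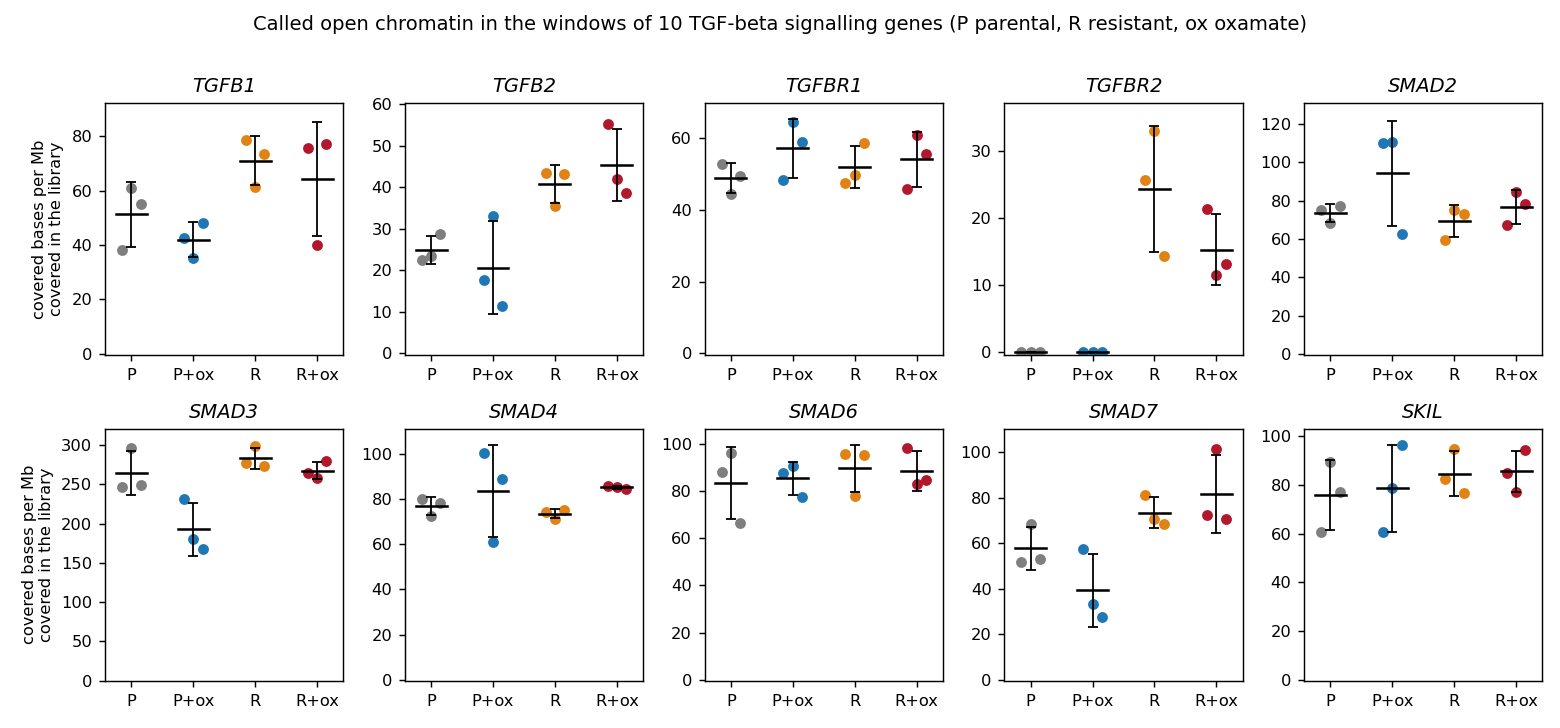
Covered bases of each gene window per Mb covered in the library, for the 10 genes, with a point for each library, a line at the mean and bars of 1 SD (n = 3; P parental, R resistant, ox treated with the inhibitor). TGFBR2, TGFB2 and SMAD7 are the panels in which all 6 resistant libraries lie above all 6 parental libraries, in SMAD7 only narrowly.

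Across the 10 genes, 3 windows rose in resistant cells and none fell, against 4.86% of all genes tested that rose and 1.6% that fell. The 3 were TGFBR2, TGFB2 and SMAD7. They were also the members whose 6 resistant libraries lay above all 6 parental ones, at SMAD7 only narrowly. Such a gap was seen in 1.47% of genes, and the reverse in no member and 0.736% of genes. The median log2 difference was 0.21 over the 10 members and −0.00 over all genes. Without scaling, 9 of the 10 windows were called higher, but so were 6186 of 16974 genes, with 51 lower. Only SMAD2 was not called in that setting. With peaks under a −log10 q of 3 removed, 5 were called, TGFB1, TGFB2, TGFBR2 and SMAD7 higher and SMAD2 lower, while over all genes 1886 rose and 2902 fell. The exact permutation test over libraries called no member (adjusted p = 0.103 for TGFBR2, TGFB2 and SMAD7) and no gene, with 1770 genes higher and 1889 lower before adjustment at the same threshold.

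Among treated cells alone, 4 windows were higher in resistant cells and none lower, against 6.56% and 1.58% of genes. They were TGFB2 (log2 difference 0.90 ± 0.24, SE), TGFBR2, SMAD3 and SMAD7. The TGFB2 call was lost without treated parental replicate 1 (0.068), treated parental replicate 3 (0.0894) or any of the 3 treated resistant replicates (0.0556 to 0.135), and with gene spans alone (0.0581). These 4 windows were also the members without overlap (14.8% of genes higher, 11.8% lower). Among untreated cells alone no member passed in limma (2 at an unadjusted p under 0.05, TGFBR2 and TGFB2), and 0.0118% of genes were called higher. TGFB1, TGFB2, TGFBR2 and SMAD7 did not overlap there (6.51% of genes higher, and no member and 9.2% of genes lower). The gap was narrow at SMAD7 and at TGFB1, where the highest parental library had 60.93 and the lowest resistant library 61.25 bp per Mb.

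The effect of the inhibitor was tested within each phenotype. In parental cells no member passed (0.218% of genes rose and 1.58% fell), and 2, SMAD3 and SMAD7, were lower at an unadjusted p under 0.05. With peaks under a −log10 q of 3 removed, TGFB1, TGFB2 and SMAD7 were called lower in treated parental cells (limma adjusted p = 2.04e-05, 0.00014 and 0.0452). Of the 15439 genes tested in that setting, 761 were called lower and 284 higher. At that limit TGFB1 and TGFB2 are at 0 bp in every treated parental library, and SMAD7 in 2 of 3, so no size is given. The start peaks of treated parental cells were all weaker than that limit, with a −log10 q of 2.33, 2.14 and 2.91 at TGFB1 and 2.71, 1.85 and 1.81 at TGFB2, where untreated parental cells had 6.14, 7.53 and 4.69 and 10.3, 6.49 and 4.30. Treated parental lists also covered the fewest bases. Their start-peak fold was lower too at TGFBR1 (5.34 to 6.47 against 7.70 to 9.73 untreated) and SMAD6 (3.62 to 3.86 against 4.21 to 4.42). The same held at the second SMAD3 start region, chr15:67124603-67126117 (3.71 to 4.33 against 4.51 to 5.31). At SMAD2, SMAD4, SKIL and the outermost SMAD3 start these ranges overlapped. The part of the smaller lists was not tested. In resistant cells no member and no gene passed in limma (202 genes higher and 249 lower before adjustment, none a member), and besides SMAD4 no member separated the treatments (3.2% of genes were lower without overlap). Over both phenotypes no member passed (0.00589% of genes rose and 0.0707% fell), with SMAD3 alone at an unadjusted p under 0.05. The test of whether treatment acted differently in resistant and parental cells called no member and no gene in limma (1153 genes with a higher and 372 with a lower estimate at an unadjusted p under 0.05, none a member), and the 10 interaction estimates ran from −0.42 to 0.62 on the log2 scale. At the stricter q the interaction passed for TGFB1 (limma adjusted p = 0.00144) and TGFB2 (adjusted p = 0.0037), again against a group at 0. Over all genes in that setting, 220 passed with a higher and 5 with a lower estimate.

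**Figure D4:**
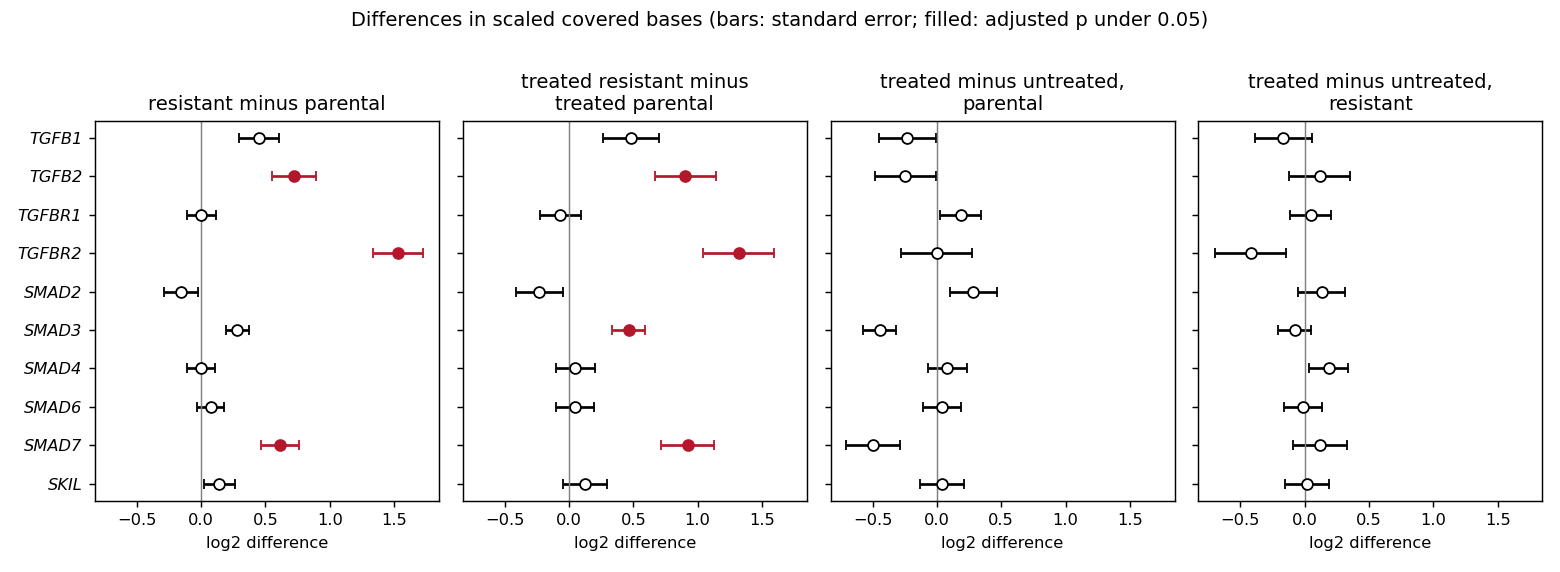
Log2 differences in scaled covered bases of the 10 gene windows in 4 comparisons, with bars of 1 standard error and filled points for an adjusted p under 0.05. Filled points appear for TGFB2, TGFBR2 and SMAD7 between resistant and parental cells, for those and SMAD3 among treated cells, and for no gene with treatment.

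Single regions were counted next. Of the 101 member regions, 1 (TGFBR2) was called in all 6 resistant and no parental library, against 0.117% of all regions, and none in all 6 parental and no resistant library (0.0258%). The first count was 2 without untreated resistant replicate 2 or 3 or treated resistant replicate 2. Among untreated cells 2 member regions, both TGFBR2, were in 3 of 3 resistant and 0 of 3 parental libraries (0.652% of regions) and none the reverse (0.412%). Among treated cells 4 were gained (2.07%) and none lost (0.638%). They were the TGFBR2 start region, the SKIL region, the SMAD7 region over the internal start and a SMAD3 region (chr15:67089334-67090190), which 2 untreated parental libraries also had. Without treated resistant replicate 2 this count was 10, and without untreated resistant replicate 2 the count among untreated cells was 6 (4 without replicate 3). Treatment of parental cells removed 1 member region (1.21%), in SMAD3 (chr15:67127764-67128253, 2022 bp downstream of a start), and added none (0.153%). It removed 3 without untreated parental replicate 3, and 2 without untreated parental replicate 2 or treated parental replicate 1 or 3. Treatment of resistant cells removed and added none (0.276% and 0.239%), but added 2 without treated resistant replicate 2 and removed 1 without untreated resistant replicate 2 or 3. A test of 3 against 3 libraries cannot go below an exact p of 0.1, so these counts carry no test. Of the 9 member regions in the Fisher test none passed after adjustment, and neither did any of all 9507 regions tested. Even the most extreme split could not pass there. Before adjustment, 4 member regions were higher in resistant cells at a p under 0.05 (8.71% of regions) and none lower (2.7%).

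Motif searches covered both strands of 25 member promoters, 300 bp each. The palindromic SMAD box GTCTAGAC was found in 1 member promoter, that of SMAD6, and in 0.197% of all 34961 promoters. The short SMAD sequence CAGACA was in 4 (16.9% of all), 1 of TGFB2, 2 of TGFBR1 and 1 of SMAD3, and the TGFBR1 and SMAD3 matches lay in no peak. The AP-1 site TGANTCA was in 2 (7.68%), TGFBR2 and SMAD3. The Sp1 box GGGCGG was in 12 (45.0%) and the ETS core CCGGAA in 2 (17.3%), TGFBR1 and SMAD7, both outside peaks. A match is a description of letters, not a site.

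Other genes of the wider pathway were counted from a list of 58, of which 55 were tested. Between resistant and parental cells 8 rose and none fell, against 4.86% and 1.6% of all genes, with a median log2 difference of 0.13. They were 2 of 11 ligands and ligand binders, 1 of 10 receptors, 2 of 3 further SMADs, 2 of 18 regulators and 1 of 13 target genes. TGFBI, a matrix protein named for its induction by TGF-beta, rose by 0.72 ± 0.12 (SE, limma adjusted p = 0.00451). NEDD4L, a ubiquitin ligase acting on activated SMADs, rose by 0.86 ± 0.16, TGIF2, a repressor of SMAD transcription, by 1.28 ± 0.27, LTBP3, which binds latent TGF-beta, by 0.59 ± 0.13, and SMAD1, which serves bone morphogenetic protein receptors, by 0.72 ± 0.16. The exact permutation test called none of these 5 genes, LTBP3 was not called with gene spans alone (adjusted p = 0.164), and SMAD1 was not called with peaks under a −log10 q of 3 removed (0.422).

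The SMAD1 log2 difference between phenotypes was 1.46 among treated and −0.03 among untreated cells. SMAD1 held 931 to 1518 bp in untreated and 96 to 374 bp in treated parental libraries, and 1362 to 1706 bp in untreated and 1204 to 1656 bp in treated resistant libraries. Treated parental libraries lay below all others. In parental cells the SMAD1 window fell by 1.38 on the log2 scale with treatment (limma adjusted p = 0.0082), and so did TGFBI, by 0.73 (adjusted p = 0.0463), the only 2 of 55 to pass. The TGFBI call was lost when any of 9 libraries was left out, with an adjusted p of up to 0.14, and was kept under 3 of 10 other settings, with an adjusted p of up to 0.184. The SMAD1 interaction with phenotype was 1.49 ± 0.31 (SE) and did not pass (limma adjusted p = 0.118). Among treated cells 10 of the 55 were higher in resistant cells and 1 was lower, against 6.56% and 1.58% of all genes, and the 5 with the smallest adjusted p were SMAD1 (1.46), TGFBI (1.04), TGIF2 (1.96), BMP7 (1.04) and GDF11 (0.96), as log2 differences. BMP7 and GDF11, both ligands of the same superfamily, lost the call without treated resistant replicate 1 or 3 (adjusted p from 0.0505 to 0.0743). With peaks under a −log10 q of 3 removed, the SMAD1 differences among treated cells and with treatment did not pass (adjusted p = 0.482 and 0.244). No listed gene passed in the other comparisons.

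Over the 12 libraries, and as a description only, the genes whose scaled log2 values followed SMAD4 most closely were PLA2G4E (Pearson r = 0.972), DNAH6 (0.910) and ERCC6L (0.908). For TGFBR2 they were LOC105377015 (0.982), which shares its window, TP53TG3 (0.969) and SDC4 (0.943). For TGFB2 they were TPD52L1 (0.943), EME2 (0.936) and OSBPL10 (0.929), for SMAD3 TMEM210 (0.950), NEK6 (0.945) and EIF2AK2 (0.943), and for SMAD7 SMAD9 (0.953), SEMA4C (0.952) and PDGFA (0.951). The points share groups, depth and peak width.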

How the data were processed

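The authors aligned ATAC-seq reads with Bowtie2 2.1.0 (hg38 in the submitters' processing notes), discarded reads that were mitochondrial, duplicated or not uniquely placed, and ran MACS2 in paired-end mode on each library to call broad peaks. The deposited lists give positions, a score, a fold ratio over local background, and −log10 of p-values and q-values. The MACS2 version and any control are not given in the sources used here, and no counts are listed, so no count test was run. Groups and replicate numbers came from the sample titles. Only chromosomes 1 to 22 and X entered, which set aside 0.892% of the 677901 peaks.

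Covered bases per Mb plus 10 were compared on the log2 scale with limma 3.58.1 in R 4.3.3 (4 group means, empirical Bayes with trend) over 16974 protein-coding genes with a peak in at least 3 libraries, with Benjamini-Hochberg adjustment and a threshold of 0.05. Presence of merged regions (1 bp overlap, called in 5 to 7 libraries) was compared with Fisher's exact test. Depth is not listed, so relative depth was derived from the background pileup and the narrowest peak, and no counting interval is given. Both tests were tried on simulated data. The simulation for Fisher's test held a far larger share of regions split completely by phenotype than these libraries. It therefore does not show that the test could call a region here. Members, gene lists and motifs were chosen with earlier results of these data known. Named were the 10 members, their start regions, regions that differed between groups, the best-ranked constant region, and up to 5 called pathway genes a comparison. Alternatives changed the peaks used, scaling, constant, filter, window, gene set, test and libraries. Some listed genes are not reported here.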

Additional observations from a re-analysis of the deposited data

How the results depend on the processing

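Without scaling the counts of member windows called were 9 between resistant and parental cells, 7 among treated cells, 1 among untreated cells and 2 with treatment in parental cells, while the median of all genes moved by 0.36, 0.52, 0.20 and −0.38. At a −log10 q of 3 or more the counts were 5 for phenotype, 2 for treatment, 2 for the interaction, 3 for treatment in parental cells and 6 among treated cells (5 higher and 1, SMAD2, lower). Of 15439 genes in that setting, 1886 rose and 2902 fell for phenotype, and 2241 rose and 3131 fell among treated cells. Treatment called 6 genes higher and 230 lower, treatment in parental cells 284 and 761, and the interaction 220 and 5. The exact permutation test called 0 for phenotype, with 0.005 the smallest p it can give. It was not run for 3 against 3 libraries, where the smallest p is 0.1. Among untreated cells 1 member (TGFBR2) was called with equal numbers of top-ranked peaks, gene spans alone, 10 kb flanks, no filter and all RefSeq genes. Gene spans alone left 2 among treated cells. Leaving out 1 library gave 1 to 4 member windows for phenotype, 1 to 4 among treated cells, 0 to 1 among untreated cells, 0 to 1 with treatment in parental cells and 0 to 0 elsewhere. The cause of these changes was not tested.

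For regions in 3 of 3 and 0 of 3 libraries, the 1 lost with treatment in parental cells became 2 at a −log10 q of 3 or more, and 0 with equal numbers of peaks, with peaks of at least 124 bp and with at least 50% of a region covered, the last giving 1 lost in treated resistant cells. The 2 gained in untreated resistant cells became 0 at a −log10 q of 3 or more and 1 with peaks of at least 124 bp. Leaving out 1 library gave 1 to 3 lost with treatment in parental cells, 0 to 2 gained and 0 to 1 lost with treatment in resistant cells, 2 to 6 gained and 0 to 1 lost among untreated cells and 4 to 10 gained among treated cells.

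Signs turned only for differences near 0 that did not pass as reported. TGFBR1 was −0.11 at a −log10 q of 3 or more, −0.01 with equal numbers of peaks, −0.00 with 10 kb flanks and −0.05 to 0.05 without single libraries. SMAD4 was 0.10 with gene spans alone, 0.03 with 10 kb flanks, 0.41 without scaling and −0.10 to 0.06 without single libraries. SMAD2 was 0.17 with gene spans alone and 0.25 without scaling. SMAD6 was −0.07 with equal numbers of peaks. SKIL was −0.20 at a −log10 q of 3 or more and −0.06 with equal numbers of peaks.

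Same-numbered libraries of different groups did not deviate together (median correlation −0.03, from −0.18 to 0.20, over 18 pairs), so the replicate numbers do not pair libraries. With the replicate block the counts were 3 for phenotype and 3 among treated cells, where SMAD3 had an adjusted p of 0.0543, and 0 elsewhere. TGFBI with treatment in parental cells had 0.0556, and the genes higher there went from 37 to 24. Read depth is not listed, so a missing peak means one not called in that list, not closed chromatin.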
